A study of Homo sapiens with 6 samples.

Results

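Of the 10172 peaks that N-Myc had in common across 3 replicates in CHP-134 neuroblastoma cells, 744 lay at promoters of differently named genes on both DNA strands without JMJD6. These peaks were chosen by position alone: an autosomal N-Myc peak was kept when it was absent from the list shared with JMJD6, touched no N-Myc super-enhancer, and overlapped by at least 1 bp the listed promoters of 2 or more genes, with at least 1 on each strand. A promoter is the stretch from 1 kb before to 1 kb after a RefSeq transcription start. The most similar peaks were 2674 that met the same rule except that their promoters were on 1 strand only, and next came 2563 that lay in a listed typical enhancer and at no listed promoter. Of the 3418 autosomal promoter peaks without JMJD6 and outside super-enhancers, the both-strand peaks thus made up 21.8% (exact 95% interval 20.4 to 23.2%).

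N-Myc is a basic helix-loop-helix leucine zipper protein that binds DNA as a dimer with MAX, most strongly at the E-box CACGTG, and amplification of its gene marks aggressive neuroblastoma. JMJD6 is a Jumonji domain protein with reported roles in splicing and in release of paused RNA polymerase. Many human genes lie head-to-head, with a minus-strand start just upstream of a plus-strand start, so that 1 stretch of CpG-rich, mostly TATA-less DNA serves transcripts running in opposite directions. Such bidirectional promoters are known to be common among genes for DNA repair, chaperones and mitochondrial proteins, and many of the remaining ones pair a protein-coding gene with a long non-coding RNA.

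CHP-134 is a MYCN-amplified human neuroblastoma line, and the cells received no treatment. The samples comprised 3 chromatin immunoprecipitations with an N-Myc antibody (sc-53993) after formaldehyde cross-linking, and 3 with a JMJD6 antibody (ab64575) after double cross-linking. Absence of JMJD6 from a peak therefore compares different antibodies and fixations as well as different proteins. The lists hold only positions, pooled over the replicates. The depth of a peak is thus unknown, and its variation among replicates cannot be given. Intervals and tests below cover the counting of listed peaks or genes in 1 cell line, and peaks at the same pair of genes are not independent.

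The sequences that show the E-boxes best are those of 5 both-strand peaks among the richest in E-boxes, followed by textbook head-to-head pairs. All are reference sequence (GRCh37, plus strand, 5′ to 3′) in lower case. The E-box is in capitals wherever the sequence holds one. Pairs are named with the minus-strand gene first.

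A peak with 4 E-boxes, 1322 bp wide, spanned listed starts 16 bp apart of the microRNA gene MIR4739 and the long non-coding RNA LINC02078. Whether transcription begins at the listed start of a small RNA gene was not tested, here or at other such pairs. Only 1 of its E-boxes lay between the starts, and the other 3 lay on the MIR4739 side, outside annotated exons:
MIR4739/LINC02078, between the starts, chr17:77681052-77681081: tcctcccctgccCACGTGgcctgggcggga
MIR4739/LINC02078, minus-strand side, chr17:77680501-77680530: atgacctccagcCACGTGccagctgccagg
MIR4739/LINC02078, minus-strand side, chr17:77680304-77680333: ctgcagcgcaaaCACGTGactaagcatctt
MIR4739/LINC02078, minus-strand side, chr17:77680245-77680274: acaatccctcctCACGTGtgtggggctggc

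The other 4 peaks had 3 E-boxes each. OSGEP, a tRNA-modifying enzyme, and APEX1, the main abasic-site endonuclease of base excision repair, had starts 22 bp apart under a peak of 1145 bp. The first E-box fell between the starts, the second just past the APEX1 start and the third in an APEX1-side exon:
OSGEP/APEX1, between the starts, chr14:20923268-20923297: aagcgtctccgtCACGTGgtgtcagacaga
OSGEP/APEX1, plus-strand side, chr14:20923329-20923358: cgcgcctctgatCACGTGaccaggtccgct
OSGEP/APEX1, plus-strand side, chr14:20923350-20923379: aggtccgctaccCACGTGggggctcagcgt

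RPUSD4, a mitochondrial pseudouridine synthase, and FAM118B had starts 31 bp apart, and their 3 E-boxes lay in annotated exons. HPS5, which acts in lysosome-related organelle biogenesis, and GTF2H1, a subunit of the transcription and repair factor TFIIH, had starts 94 bp apart, with 1 E-box between them and 2 in an exon on the GTF2H1 side. All 3 E-boxes of HPS5/GTF2H1 followed a T:
RPUSD4/FAM118B, chr11:126081552-126081581: gcgagccaagacCACGTGgagaagggcgac
RPUSD4/FAM118B, chr11:126081604-126081633: ggccctgcaggtCACGTGgtgcggggtggg
RPUSD4/FAM118B, chr11:126081634-126081663: gcctgggcgagtCACGTGgggacggtgcgc
HPS5/GTF2H1, between the starts, chr11:18343785-18343814: gcacttcctcatCACGTGacgagtcacgcc
HPS5/GTF2H1, plus-strand side, chr11:18344058-18344087: gcgctcttgagtCACGTGcccagggcccgc
HPS5/GTF2H1, plus-strand side, chr11:18344091-18344120: gctacttccggtCACGTGccctcagactcc

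The pseudogene FAM21EP and WASHC2A, a subunit of the actin-regulating WASH complex, had starts 84 bp apart, and the peak of 205 bp was among the 5 narrowest. WASHC2A has near-identical copies, so its reads may have been placed with uncertainty. The whole stretch between the starts held no annotated exon and 2 of the 3 E-boxes:
FAM21EP/WASHC2A, chr10:51827565-51827646: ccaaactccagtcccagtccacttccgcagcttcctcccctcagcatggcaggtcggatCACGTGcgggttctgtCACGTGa

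Among the textbook pairs, E-boxes in the peak were found only at PPAT/PAICS, which encode enzymes of purine synthesis and start 112 bp apart. Their locus had 3 both-strand peaks, of 274, 311 and 1140 bp, with 1, 1 and 2 E-boxes. None lay between the starts. The narrow peaks had theirs in exons on either side, and the widest, centred in a PAICS intron, had its E-boxes outside annotated exons:
PPAT/PAICS, minus-strand side, chr4:57301646-57301675: cgccgccgaaagCACGTGgaaggacctgcc
PPAT/PAICS, plus-strand side, chr4:57301946-57301975: ctgtatttgctgCACGTGgaaatctccgtt
PPAT/PAICS, plus-strand side, chr4:57302545-57302574: tgagctcgcggcCACGTGcgagccgcgaaa
PPAT/PAICS, plus-strand side, chr4:57302613-57302642: cgcgcgggcgcaCACGTGgcccaggcgctc

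Over all 744 both-strand peaks, 261 (35.1%) held an E-box in the peak. The 6 other textbook pairs with a both-strand peak had no E-box in it. They were HSPD1/HSPE1, the mitochondrial chaperonin and its co-chaperonin (peak of 315 bp, starts 80 bp apart), and NPAT/ATM, a histone gene activator and the DNA damage kinase (615 bp, 193 bp apart). BRCA1/NBR2 paired a DNA repair gene with a non-coding RNA (633 bp, 73 bp), and TK1/AFMID a thymidine kinase with a formamidase (430 bp, 112 bp). GART, a purine synthesis enzyme, was paired with the splicing protein SON (328 bp, 145 bp), and PRKDC, the DNA-dependent protein kinase, with the replicative helicase subunit MCM4 (638 bp, 19 bp). The position of the peaks differed. HSPD1/HSPE1 and TK1/AFMID peaks were centred in exons on the plus-strand side, whereas the GART/SON peak was centred 1022.5 bp from the pair centre in an intron on the GART side and overlapped only 69 bp of the SON promoter window. SURF1/SURF2, SARS2/MRPS12 and TIMM50 had no N-Myc peak at a listed promoter.

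The stretches between the starts of NPAT/ATM and GART/SON hold no annotated exon and no E-box, and in both cases the N-Myc peak lay beside the stretch rather than on it. They are shown for another promoter motif, the CCAAT core of NF-Y, which did not pass the comparison given below. It is in capitals on either strand (1 copy and 3 copies):
NPAT/ATM, chr11:108093367-108093557: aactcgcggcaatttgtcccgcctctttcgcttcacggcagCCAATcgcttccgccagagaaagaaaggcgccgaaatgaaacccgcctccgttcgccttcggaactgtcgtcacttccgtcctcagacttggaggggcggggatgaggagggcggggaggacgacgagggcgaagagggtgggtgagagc
GART/SON, chr21:34915200-34915342: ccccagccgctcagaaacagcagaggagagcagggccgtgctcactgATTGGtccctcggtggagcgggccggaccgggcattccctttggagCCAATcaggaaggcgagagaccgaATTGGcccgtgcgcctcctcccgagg

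The 744 peaks belonged to 672 distinct gene pairs, the pair being the closest listed starts on opposite strands. Of these pairs, 64 had 2 peaks and 4 had 3 (DESI1/XRCC6, PCBP1-AS1/PCBP1, PPAT/PAICS and TMEM116/ERP29). The peaks touched promoters of 1381 gene symbols, and 39 peaks touched more than 2. Both genes were protein-coding at 473 peaks (63.6%, 60.0 to 67.0%), and a coding gene was paired with a long non-coding RNA at 169 (22.7%, 19.8 to 25.9%). A further 62 paired a coding gene with a symbol not found in the current RefSeq table. The share of both-strand peaks among promoter peaks ranged from 16.2% on chromosome 15 to 29.7% on chromosome 22, with overlapping intervals (9.72 to 24.7% and 18.9 to 42.4%).

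Head-to-head starts were the main arrangement, with 560 of 744 peaks (75.3%, 72.0 to 78.3%). Their starts were a median of 119 bp apart (quartiles 64 and 261 bp, range 2 to 2261 bp), and at 236 peaks they were within 100 bp. In the other 184 peaks the plus-strand start lay upstream of the minus-strand start, so that the genes overlapped, by a median of 220.5 bp. Coding pairs were head-to-head at 78.4% of peaks (74.5 to 82.0%), and coding genes with a long non-coding partner at 65.1% (57.4 to 72.2%). These distances bear on the overlap that selected the peaks and are given without a test.

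**Figure D1:**
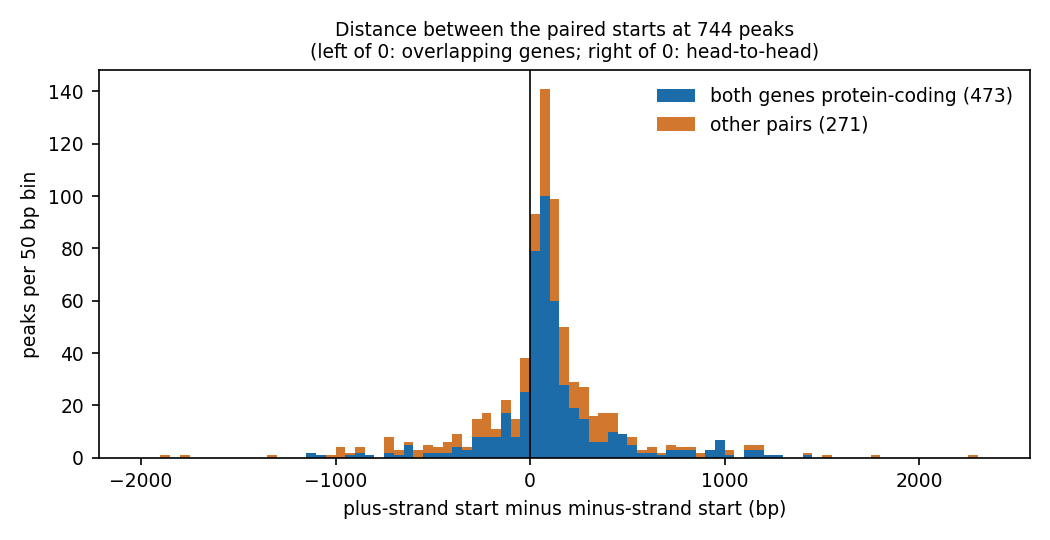
Number of both-strand promoter peaks (y axis, per 50 bp bin) by the signed distance in bp from the minus-strand start to the plus-strand start (x axis), stacked for 473 pairs of coding genes and 271 other pairs. Most peaks stand just right of 0, where starts point away from each other, with a median of 119 bp among the 560 head-to-head peaks.

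The peaks were wider than most, with a median of 478.5 bp (quartiles 355 and 652 bp) against 443 bp at promoters on 1 strand and 416 bp over all 9804 autosomal N-Myc peaks without JMJD6. A wide peak more readily reaches a second promoter, so width is a description only. The widest was 1895 bp at HNRNPA2B1/CBX3, an RNA-binding protein and a heterochromatin protein. It was followed by SKA2/PRR11 (1683 bp), both linked to mitosis, RBM15-AS1/RBM15 (1363 bp), with an adaptor of RNA methylation, MIR4739/LINC02078, and the zinc finger genes ZNF565/ZNF146 (1321 bp). The narrowest was 189 bp at PSME4/ACYP2, a proteasome activator and an acylphosphatase, ahead of FAM21EP/WASHC2A, ZDHHC24/ACTN3 (206 bp), HSF2BP/RRP1B (207 bp) and REV3L/TRAF3IP2-AS1 (210 bp).

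Most midpoints at head-to-head pairs lay outside the stretch between the starts, in similar numbers on either side. That stretch was short, with a median of 119 bp beside a median width of 478.5 bp over all both-strand peaks. Coverage by head-to-head peaks was highest next to the pair centre (59.2% of peaks). A peak covered both starts in 319 cases (42.9%), 1 start in 186 (25%) and neither in 239 (32.1%). Among head-to-head pairs the midpoint lay between the starts in 147 (26.3%, 22.7 to 30.1%), on the plus-strand side in 203 and on the minus-strand side in 210. Of 83 head-to-head peaks that paired a coding gene with a long non-coding RNA and lay outside the stretch, 28 (33.7%, 23.7 to 44.9%) were on the coding side. At promoters on 1 strand, 42.2% of midpoints lay downstream of the nearest start (40.3 to 44.1%). The midpoint of a both-strand peak fell in an annotated exon in 466 cases, in an intron in 183 and between genes in 95.

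The share of both-strand peaks with an E-box did not differ past the threshold from either comparison class in the window used throughout, though other windows moved the call. CACGTG was present within 200 bp of the midpoint, a window of 401 bases, in 222 of 744 peaks (29.8%, 26.6 to 33.3%), against 30.7% of all 10019 autosomal N-Myc peaks. At promoters on 1 strand it was present in 903 of 2674 peaks (33.8%, 32.0 to 35.6%), which gave an odds ratio of 0.834 (0.696 to 0.998) and a p of 0.0471 in a two-sided Fisher's exact test, or 0.0942 after Benjamini-Hochberg adjustment over both comparisons. Distal enhancer peaks had it in 688 of 2563 (26.8%), an odds ratio of 1.16 (0.963 to 1.39, adjusted exact p = 0.113). For reference, 9.38% of windows of the same length around all annotated coding starts held the motif. With width, GC content, CpG ratio and distance to the nearest start in a logistic regression, the odds ratio against promoters on 1 strand was 1.01 (0.840 to 1.21). With 100 bp on each side of the midpoint it was 0.776 (adjusted exact p = 0.0283) against promoters on 1 strand and 0.988 against distal enhancer peaks, and over the whole peak the latter was 1.23 (adjusted exact p = 0.0446).

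Windows with several E-boxes did not pass the test either. A window held 2 or more in 37 both-strand peaks (4.97%) and in 120 peaks at promoters on 1 strand (4.49%), an odds ratio of 1.11 (0.742 to 1.64, Fisher p = 0.554). Over the whole peak, 261 both-strand peaks (35.1%) held 327 E-boxes: 206 peaks had 1, 46 had 2, 7 had 3 and 2 had 4. Head-to-head peaks held an E-box in the window in 169 of 560 cases and the overlapping arrangement in 53 of 184 (30.2% and 28.8%, odds ratio 1.07, 0.731 to 1.57, Fisher p = 0.781). Peaks shared between a coding gene and a long non-coding RNA held one in 34.9% (27.8 to 42.6%) and pairs of coding genes in 27.9% (23.9 to 32.2%), intervals that overlapped.

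E-boxes were not confined to the space between the starts. In 349 head-to-head peaks with starts 50 to 300 bp apart, the peak sequence between the starts held 26 E-boxes in 28605 bp (0.909 per kb, 0.594 to 1.33), and that within 300 bp beyond either start held 71 in 95408 bp (0.744 per kb, 0.581 to 0.939). The intervals overlapped. In the profile around the pair centre, the highest 50 bp bin lay just to the plus-strand side, with 23 E-boxes or 4.11 per 100 peaks, against 3.40 per 100 in the highest bin of promoters on 1 strand. These bins are not like for like. They were covered by 59.2% and 52.5% of peaks, and distances ran from the pair centre and from the nearest start.

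**Figure D2:**
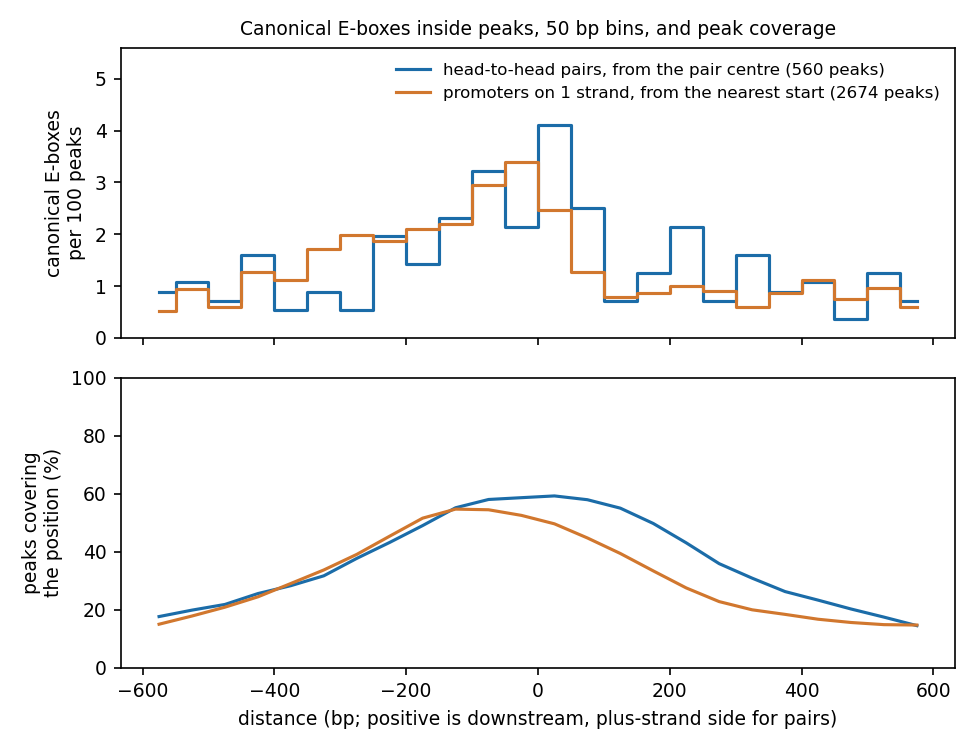
Canonical E-boxes inside peaks per 100 peaks in 50 bp bins (top) and the percent of peaks that cover each position (bottom), by distance in bp from the centre of 560 head-to-head pairs or from the nearest start of 2674 peaks at promoters on 1 strand. E-boxes and coverage were both highest near 0, with at most 4.11 and 3.40 E-boxes per 100 peaks in a bin.

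Other promoter motifs did differ. Of 14 further core motifs, 5 passed an adjusted p of 0.05 between promoters on both strands and on 1 strand (two-sided Fisher's exact tests over windows of 401 bases, both strands searched, Benjamini-Hochberg over 14). The SP1 core GGGCGG was present in 64.5% of both-strand peaks and 52.8% of those at promoters on 1 strand (odds ratio 1.63, 1.37 to 1.93, adjusted exact p = 1.47e-07), beside 59.5% of windows at all coding starts. The ETS core CCGGAAG was present in 24.7% and 17% (1.60, 1.31 to 1.95, adjusted exact p = 2.45e-05), beside 13.5% of starts. The NRF1 core GCATGCGC, bound by a regulator of nuclear genes for mitochondria, was present in 7.80% and 5.16% (1.55, 1.11 to 2.15, adjusted exact p = 0.0265), beside 3.91% of starts. It missed the threshold in 3 alternatives, with 100 bp on each side, with peaks closer than 100 kb to another left out and in head-to-head peaks (adjusted exact p 0.108, 0.100 and 0.0715). The motif contains the non-canonical E-box CATGCG.

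The remaining calls went the other way. TATAAA, the core of the TATA box, was present in 5.11% of both-strand peaks and 9.01% of those at promoters on 1 strand (odds ratio 0.543, 0.372 to 0.776, adjusted exact p = 0.00127), beside 11.5% of starts, and missed the threshold in wide peaks (adjusted exact p = 0.0538). The non-canonical E-box CATGTG was present in 13.7% and 20% (0.634, 0.499 to 0.800, adjusted exact p = 0.000300), beside 11.4% of starts and 49.1% of distal enhancer peaks. CpG-rich windows were also more frequent at both-strand peaks, and midpoints lay nearer to a listed start, as given below. The part of base composition or of this distance in these motif differences was not tested.

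The other 9 motifs did not pass. The non-canonical E-boxes CACGCG (27%, beside 16.6% of starts), CACGAG (22.0%, 9.96%) and CATGCG (16.5%, 9.29%) had odds ratios of 1.03 (0.851 to 1.24), 1.06 (0.865 to 1.30) and 1.02 (0.812 to 1.27). NF-Y cores CCAAT were present in 44.9% of both-strand peaks (1.14, 0.962 to 1.34, starts 39.3%). YY1 cores AAGATGG were in 11.6% (1.30, 0.991 to 1.70, starts 7.57%), E2F cores TTCCCGC in 14.9% (1.31, 1.03 to 1.67, starts 10.1%) and ZNF143 cores ACTACAA in 6.99% (1.47, 1.03 to 2.07, starts 3.48%), with adjusted p of 0.0866, 0.0529 and 0.0529. CREB cores TGACGTCA (3.09%, starts 2.45%) and the element CTCGCGAG (2.96%, starts 1.38%) were rare. Neither CACGTG nor any of the 4 non-canonical E-boxes was present in 198 both-strand windows (26.6%, 23.5 to 29.9%), against 577 (21.6%) at promoters on 1 strand.

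**Figure D3:**
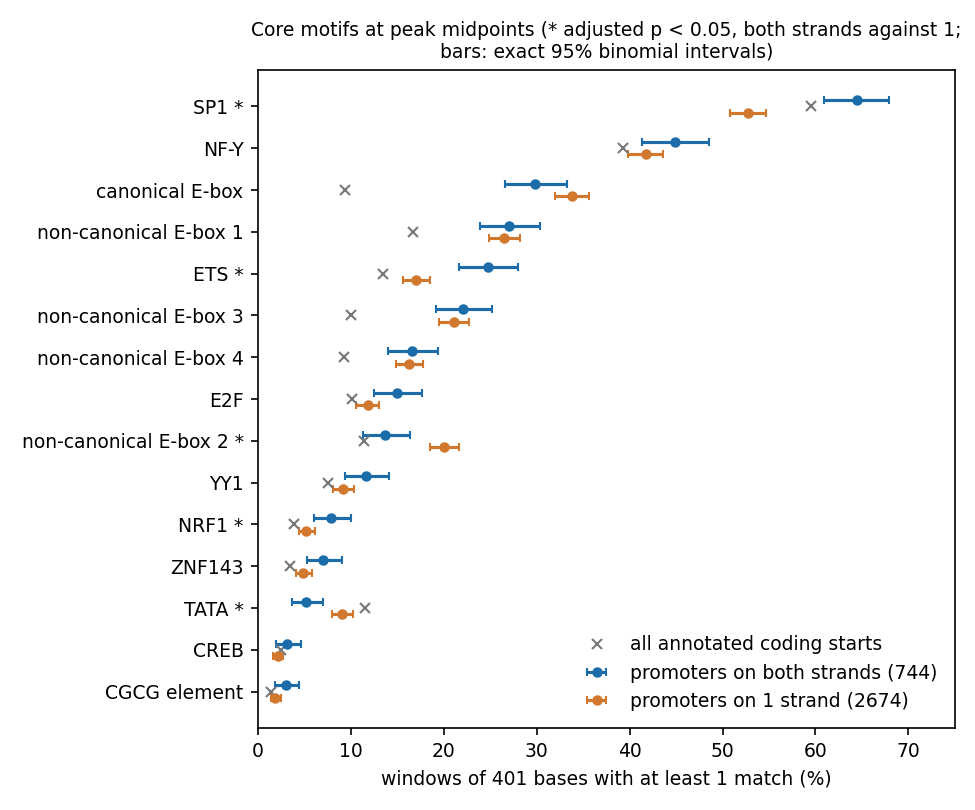
Percent of windows of 401 bases around the peak midpoint with at least 1 match to each core motif, at promoters on both strands (744 peaks) and on 1 strand (2674 peaks), with exact 95% binomial intervals. Crosses give all annotated coding starts, and the non-canonical E-boxes are CACGCG (1), CATGTG (2), CACGAG (3) and CATGCG (4). SP1, ETS and NRF1 stood higher at both-strand peaks (64.5, 24.7 and 7.80%), TATA and CATGTG lower (5.11 and 13.7%), and the canonical E-box at 29.8 against 33.8% did not pass.

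Base composition differed in the same comparison. Windows with at least 50% GC and an observed to expected CpG ratio of at least 0.6 were found at 617 of 744 both-strand peaks (82.9%, 80.0 to 85.6%) and 1825 of 2674 at promoters on 1 strand (68.2%, 66.4 to 70.0%), an odds ratio of 2.26 (1.83 to 2.80, Fisher p = 4.59e-16). Median GC content was close (59.6% and 58.9%), and the median CpG ratio was 0.791 and 0.727. Composition ranged from 34.2 to 74.8% GC among the both-strand peaks. The midpoint lay a median of 103.5 bp from the nearest listed start at both-strand peaks, against 222 bp at promoters on 1 strand. The part of this shorter distance in the CpG-rich difference was not tested.

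Both-strand peaks also lay more often in regions listed as N-Myc typical enhancers, which the authors stitched from H3K27ac peaks. The overlap was 668 of 744 (89.8%, 87.4 to 91.9%) against 2062 of 2674 (77.1%, 75.5 to 78.7%), an odds ratio of 2.61 (2.02 to 3.41, Fisher p = 9.51e-16), beside 53.3% of all autosomal N-Myc peaks. Enhancer regions as listed were therefore not separate from promoters. All peaks of the textbook pairs named above lay in such a region.

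Whether head-to-head genes more often had an N-Myc peak was asked of the gene annotation itself (GENCODE version 44 on GRCh37) rather than of the listed promoters. A peak lay within 500 bp of the plus-strand start in 259 of 775 head-to-head coding pairs with starts within 1 kb (33.4%, 30.1 to 36.9%). Coding genes with no opposite-strand coding start within 5 kb had one in 1825 of 15082 (12.1%, 11.6 to 12.6%), and all 18574 autosomal coding starts in 14.9%. The odds ratio was 3.65 (3.10 to 4.28, Fisher p = 1.14e-50). CpG-rich sequence was more frequent at paired starts. The odds ratio was 2.41 (2.05 to 2.84, p = 6.97e-26) with GC content and CpG ratio in a logistic regression, and 2.36 among CpG-rich starts alone, an alternative chosen after seeing the data (241 of 690 against 1528 of 8234, or 34.9 and 18.6%, Fisher p = 3.19e-22). Expression of the genes was not measured in these samples, and its part in the difference was not tested.

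By distance, the share was 32.9% (27.7 to 38.5%) for starts up to 100 bp apart, 34.8% (29.7 to 40.3%) for 101 to 300 bp and 31.2% (23.6 to 39.6%) for 301 to 1000 bp. At 1001 to 5000 bp it was 13.5% (9.69 to 18.1%), close to single starts. CpG-rich sequence followed a similar course, at 91.5, 91.5, 77.5 and 48.5% of starts in these bins and 54.6% of single starts. With only peaks that overlapped the start itself counted, the odds ratio was 4.01. A peak near 1 start of a pair can also lie at the partner start, and the part of this in the difference was not tested.

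**Figure D4:**
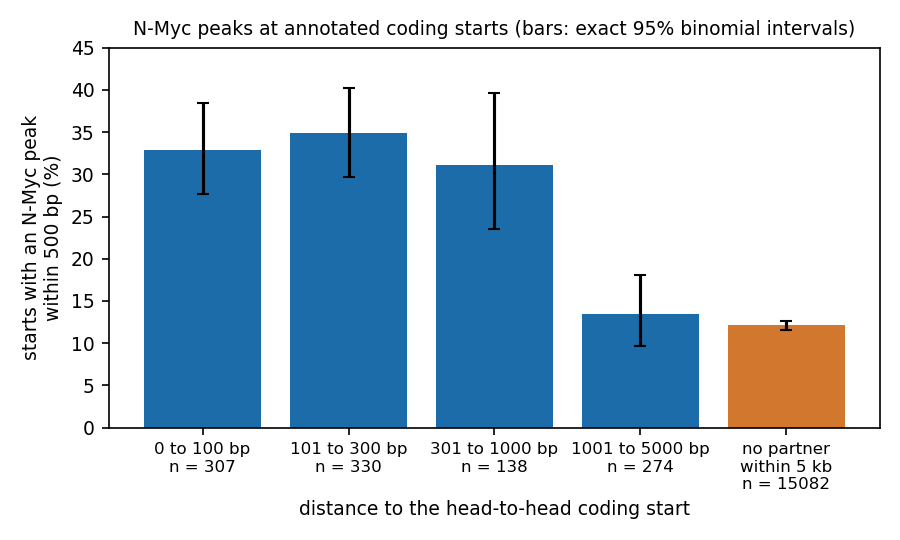
Percent of annotated autosomal coding starts with an N-Myc peak within 500 bp (bars, exact 95% binomial intervals), by distance in bp to a head-to-head coding start, with the number of starts under each bar. The bars up to 1000 bp stood between 31.2 and 34.8%, those beyond and single starts at 13.5 and 12.1%.

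The genes at both-strand peaks were described by lists. Of 4149 symbols with a listed autosomal N-Myc promoter, 1381 (33.3%, 31.9 to 34.7%) lay at a both-strand peak, and 515 of these (37.3%) had an E-box in such a peak. Both values stand in for a test below, since the lists were drawn up with results of these data known, and pairing is known from textbooks for several of them. Genes of the same pair count separately but share a peak and its E-boxes, so symbols are not independent and the intervals do not cover this. Long non-coding RNA names had the highest share, with 204 of 362 (56.4%, 51.1 to 61.5%). Many of these names mark an RNA as antisense to a gene, so a place at promoters on both strands follows in part from the naming. The symbol pattern also took LOC and FLJ names, some of which were not found in the RefSeq table. The type of those RNAs was thus not established. Zinc finger genes had the lowest, with 22 of 115 (19.1%, 12.4 to 27.5%).

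**Figure D5:**
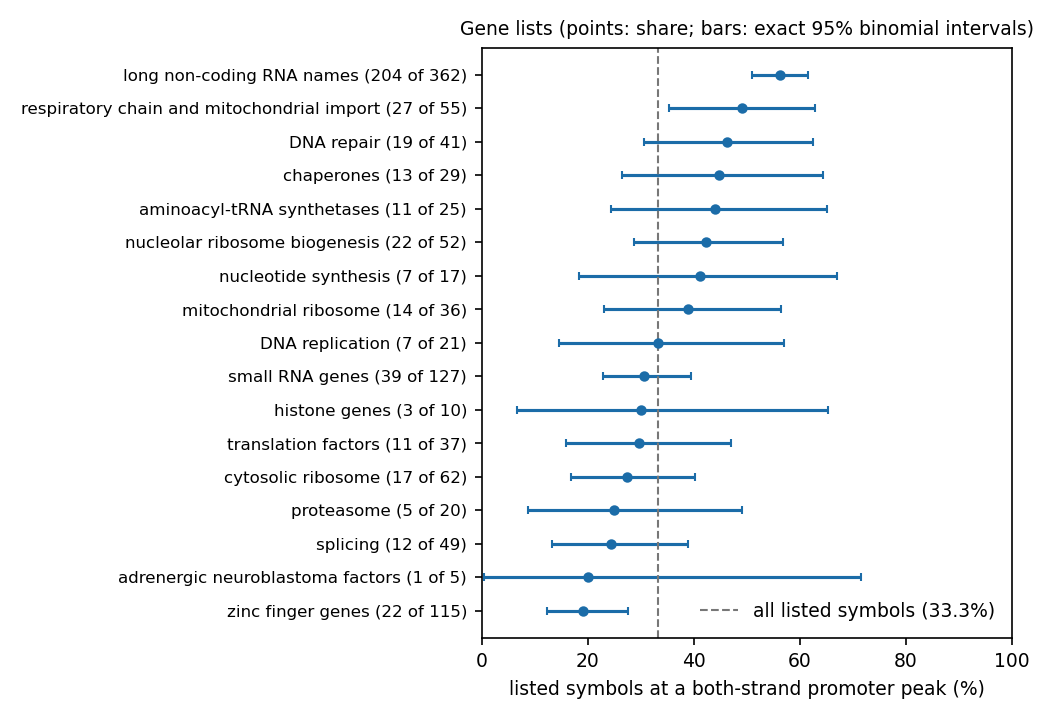
Percent of the symbols in each gene list with a listed N-Myc promoter that lay at a both-strand peak (points, exact 95% binomial intervals, counts in the labels), with a dashed line at the 33.3% of all listed symbols. Long non-coding RNA names, many of which already imply a gene on the opposite strand, stood above the line with their whole interval and zinc finger genes below it. The interval of the respiratory chain list was above it with 3 antisense RNAs counted (from 35.4%) and reached it without them (from 32.2%).

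Genome maintenance genes were among the members. Of 41 DNA repair genes with a listed promoter, 19 (46.3%, 30.7 to 62.6%) lay at a both-strand peak, 9 of them with an E-box. Besides APEX1 these included PALB2, the partner of BRCA proteins, 8 bp from DCTN5, DDB1, a damage-sensing ubiquitin ligase subunit whose start overlapped TKFC by 31 bp, and RAD1, a checkpoint clamp subunit, 39 bp from the ribosome biogenesis gene BRIX1. Each of these had 1 E-box. DNA replication genes were at the overall share, with 7 of 21 (33.3%). FEN1, the flap endonuclease, lay 23 bp from TMEM258, POLE3, a polymerase subunit, 32 bp from C9orf43, and ORC4, an origin recognition subunit, 116 bp from MBD5, again with 1 E-box each. MCM7, a helicase subunit, overlapped AP4M1 by 434 bp under 2 peaks.

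Nucleotide synthesis genes, classical Myc targets, had 7 of 17 at both-strand peaks (41.2%, 18.4 to 67.1%), 4 with an E-box. Besides PPAT and PAICS, these were DTYMK, the thymidylate kinase, 43 bp from ING5, and PFAS, a purine synthesis enzyme, 1182 bp from the telomere gene CTC1, whereas TK1, GART and TYMS had none. Nucleolar ribosome biogenesis genes had 22 of 52 (42.3%, 28.7 to 56.8%), and 13 of the 22 had an E-box. GNL3 (nucleostemin, 69 bp from PBRM1), IMP4 (a small-subunit processing protein, 116 bp from CCDC115), NOL8 (overlapping CENPP by 127 bp) and NOP10 (of the box H/ACA particles, 153 bp from NUTM1) had 2 each.

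Cytosolic ribosomal protein genes had 17 of 62 at both-strand peaks (27.4%, 16.9 to 40.2%), and 2 of the 17 had an E-box (11.8%, 1.46 to 36.4%, beside 37.3% of all symbols at these peaks). These were RPL12, 53 bp from LRSAM1, and RPS28, 86 bp from NDUFA7. RPS20 (10 bp from CERNA3) and RPS29 (overlapping LRR1 by 14 bp) had none. Mitochondrial ribosomal protein genes had 14 of 36 (38.9%, 23.1 to 56.5%), with an E-box at 3 (21.4%, 4.66 to 50.8%), which were MRPS18C (48 bp from the helicase HELQ), MRPL57 (overlapping SKA3 by 370 bp) and MRPS18B (401 bp from PPP1R10). MRPS7, 6 bp from GGA3, had none.

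Respiratory chain and mitochondrial import genes had 27 of 55 (49.1%, 35.4 to 62.9%), 13 with an E-box. The symbol pattern also took the antisense RNAs COX10-AS1, NDUFA6-AS1 and NDUFB2-AS1, which share peaks with their coding partners, and without these, left out after seeing the data, it was 24 of 52 (46.2%, 32.2 to 60.5%), 12 with an E-box. The succinate dehydrogenase subunit SDHD and the import chaperone TIMM8B formed a pair 25 bp apart with 1 E-box under a peak of 352 bp. NDUFB9, a subunit of complex I, lay 13 bp from TATDN1 with 1 E-box, and NDUFAF4, an assembly factor that the symbol pattern also took, 191 bp from KLHL32 with 2. Aminoacyl-tRNA synthetases had 11 of 25 (44%, 24.4 to 65.1%), 4 with an E-box. Among these were the mitochondrial EARS2 (165 bp from UBFD1) and the cytosolic DARS and MARS, which overlapped DARS-AS1 by 509 bp and ARHGAP9 by 862 bp.

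Chaperones had 13 of 29 (44.8%, 26.4 to 64.3%) with an E-box at 2 (15.4%, 1.92 to 45.4%), the prefoldin subunit PFDN2 (overlapping NIT1 by 5 bp) and HSP90B1, the endoplasmic reticulum HSP90 (122 bp from TTC41P). The chaperonin subunits CCT5 and CCT3, 11 bp from FAM173B and 24 bp from TSACC, had none. Splicing genes had 12 of 49 (24.5%, 13.3 to 38.9%). HNRNPDL (254 bp from ENOPH1) and the U1 particle protein SNRPA (300 bp from C19orf54) had 2 E-boxes, HNRNPH3 had 1 and PRPF4 none. Translation factors had 11 of 37 (29.7%), among them the initiation factor subunit EIF3K with 1 E-box. The pattern for this list also took the methyltransferase genes EEF1AKMT3 and EEF1AKMT4 and the read-through EEF1AKMT4-ECE2, without which it was 8 of 34 (23.5%). Proteasome genes had 5 of 20 (25%), with 1 E-box at PSMD9, 119 bp from HPD, and none at PSMC5, PSMA2 or PSME2.

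Among 10 histone genes with a listed promoter, 3 lay at both-strand peaks, each with 2 E-boxes. HIST1H2BK and HIST1H2AH formed a pair 223 bp apart under the same peak of 578 bp and its 2 E-boxes, and H2AFZ, the variant H2A.Z, lay 138 bp from LOC256880. Histone genes of the HIST1 cluster are similar in sequence, so reads may have been placed with uncertainty. Of 22 zinc finger genes, 6 had an E-box, among them ZNF565 and ZNF146, which overlapped by 72 bp under 2 E-boxes, and ZNF84 and ZNF566 with 1 each. Of the adrenergic neuroblastoma factors, 5 had a listed promoter and 1 lay at a both-strand peak. This was SOX11, a neural transcription factor, whose peak of 216 bp lay between its start and that of LINC01248, 1548 bp apart, with 1 E-box.

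Of the long non-coding RNA names at both-strand peaks, 86 of 204 had an E-box in the peak (42.2%, 35.3 to 49.3%). Small RNA genes had one in 17 of 39 cases (43.6%, 27.8 to 60.4%). Both intervals took in the 37.3% of all symbols at these peaks. Besides LINC02078, the names on this list with an E-box included LOC101928504, overlapping GTF2A1 by 14 bp. LOC101928222 lay 80 bp from WDR35, and both had 2 E-boxes. The small nucleolar RNA genes SNORD12B and SNORD12C belonged to the peak at ZNFX1/ZFAS1, and SNORD74 to that at GAS5/ZBTB37, with 2 E-boxes in each peak. Some small RNA genes lie inside such host genes. Others, such as MIR92B at MUC1/MIR92B and MIR320A at MIR320A/POLR3D, were themselves the partner by their listed start. The list's patterns also took the host transcripts MIR22HG and MIR4458HG and the pseudogene RN7SL832P.

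Peaks shared with JMJD6 were set aside by the choice of members. A JMJD6 peak lay within 10 kb of 4 of the 744 peaks, and the promoter of 2 was also in the JMJD6 promoter list. No such counts are given for the comparison classes or for all N-Myc peaks. It was thus not tested whether these counts set the both-strand peaks apart. Among 47 autosomal promoter peaks that N-Myc shared with JMJD6 outside super-enhancers, 21 (44.7%, 30.2 to 59.9%) touched both strands, beside the 21.8% without JMJD6. All 241 peaks shared with JMJD6, at promoters or elsewhere, had a median width of 574 bp, against 416 bp for autosomal N-Myc peaks without JMJD6. No width was taken for the 47 peaks alone. A wide peak more readily reaches a second promoter, and the JMJD6 list entered the choice of peaks. The share is therefore a description without a test. Inside super-enhancers the share was 16 of 83 (19.3%, 11.4 to 29.4%).

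The overlap of 1 bp was seldom decisive. Only 7 peaks overlapped the farther promoter by under 50 bp. Just inside was a peak of 409 bp at JUN/LINC01135, with a subunit of the AP-1 factor, which reached 26 bp into the farther window. Just outside was a peak at NAA16, which stopped 7 bp short of the MTRF1 window.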

How the data were processed

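Chromatin immunoprecipitation sequencing of 6 CHP-134 samples was used, 3 for N-Myc and 3 for JMJD6, grouped by the antibody in their labels. According to the labels and the study's methods, the authors aligned reads to hg19 with BWA, processed them with SAMtools and bedtools, called peaks per replicate against input with MACS2 2.1.1.20160309 at a q-value maximum of 0.05, and kept peaks found in all 3 replicates. Promoters were RefSeq starts with 1 kb on each side, and enhancers came from ROSE on H3K27ac peaks, with start sites subtracted and a stitching distance of 12.5 kb. The deposited lists give positions in bp, pooled over replicates, with no count, signal or score per sample, so depth is unknown and single replicates could not be examined. Lists of enhancers, super-enhancers and promoters bound by JMJD6 or by both proteins, other than the JMJD6 promoters, were not used here.

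Coordinates were taken as GRCh37. Of 4724 listed autosomal promoters, 4127 (87.4%) had an annotated gene start of the same symbol within 5 kb in GENCODE 44. The minus-strand and plus-strand starts of a peak were the closest opposite pair of promoter centres with different symbols. Symbol types came from the RefSeq table of a later assembly, used for names only. Motifs were counted on both strands in 401 bases around the midpoint (Python 3.11.15, pysam 0.24.0). Shares have exact Clopper-Pearson 95% intervals, odds ratios conditional exact intervals, and tests were two-sided Fisher's exact tests between separate classes of regions (SciPy 1.17.1). Logistic regressions used statsmodels 0.14.6. The scripts were tested on simulated data with known answers.

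The peaks, gene lists and tests were chosen with earlier results of these data known. Named genes were textbook head-to-head pairs, the 6 peaks with the most E-boxes (ties by the shorter distance between starts), the 5 widest and 5 narrowest peaks, up to 4 genes per list ordered by E-boxes in the peak, distance between starts and symbol, and up to 2 peaks on each side of the 1 bp limit. The 4 pairs with 3 peaks were named after their values were seen. Some items that the rule names are not reported here. No sequence from chromosome 8 is shown. Alternatives varied the window, width, spacing, promoter assignment, arrangement and covariates. Those on head-to-head peaks, coding pairs and the widest peak of each pair restricted the both-strand peaks only. The comparison classes were left whole in them.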

Additional observations from a re-analysis of the deposited data

How the results depend on the processing

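No paired analysis was possible because the lists pool the 3 replicates and no result came from values per sample, and for the same reason no replicate could be left out. The higher CpG-rich share, the higher typical enhancer overlap and the higher share of paired coding starts with a peak kept their direction and passed their tests under every alternative run. The canonical E-box odds ratio against promoters on 1 strand passed the threshold with a window of 100 bp on each side (0.776, adjusted exact p = 0.0283) and with coding pairs only (0.759, adjusted exact p = 0.0251, an alternative chosen after seeing the data), and turned to 1.01 in the logistic regression. Against distal enhancer peaks it was 0.988 with 100 bp on each side and 1.23 (adjusted exact p = 0.0446) over the whole peak. Between head-to-head and overlapping arrangements it was 0.873 in peaks at least as wide as the median and 0.967 in coding pairs (chosen after seeing the data). Over the whole peak 8 of the 14 other motifs passed instead of 5. Of the motif odds ratios near 1, CACGCG fell below it with 100 bp on each side (0.887), with peaks closer than 100 kb left out (0.958), in head-to-head peaks (0.926) and in coding pairs (0.892, chosen after seeing the data). CATGCG did so with 100 bp on each side (0.992), in wide peaks (0.998), with close peaks left out (0.991) and with the widest peak of each pair (0.964, chosen after seeing the data). NRF1 missed the threshold with 100 bp on each side, with close peaks left out and in head-to-head peaks (odds ratios 1.54, 1.45 and 1.53, adjusted exact p 0.108, 0.100 and 0.0715), and TATA in wide peaks (0.604, adjusted exact p = 0.0538), with unchanged direction. SP1, ETS and CATGTG passed under all of these. Outside the whole-peak setting, other motifs newly passed in 5 cases with unchanged direction. They included CACGAG in wide peaks and ZNF143 with close peaks left out. The other 3, under alternatives chosen after seeing the data, were E2F and ZNF143 in coding pairs and ZNF143 with the widest peak per pair. The cause of these shifts was not tested. A stricter peak threshold was imitated by width only, since the lists hold no score.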

Other observations

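The base beside the E-box differed in frequency between the classes. Over both strands of the 327 E-boxes in both-strand peaks, the base before CACGTG was C in 40.2%, T in 25.7%, G in 19.3% and A in 14.8%, against 42.3%, 16.9%, 22.1% and 18.7% over the 1204 E-boxes at promoters on 1 strand. Counted by peak, TCACGTG was present in 111 of the 261 both-strand peaks with an E-box (42.5%, exact interval 36.5 to 48.8%) and 302 of 1003 at promoters on 1 strand (30.1%, 27.3 to 33.1%). Its full palindrome, with T before the E-box on both strands, made up 30 of 327 E-boxes (9.17%, 6.28 to 12.8%) and 63 of 1204 (5.23%, 4.04 to 6.65%). The palindrome with C on both strands made up 48 (14.7%) and 228 (18.9%). This was noticed in the data and is given without a test, and E-boxes of the same peak or gene pair are not independent.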
